A study of Homo sapiens with 10 samples.

Results

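The promoters of standalone lncRNA genes were examined for ZMYND8 and FLAG-ZMYND8 ChIP-seq peaks in HEK293 cells. A lncRNA gene counted as standalone when no protein-coding gene began within 5 kb of its own start, and genes whose names begin with SNHG or LINC01605 were left out. Of 18229 lncRNA genes of GENCODE release 44 on chromosomes 1 to 22, 30 were dropped by name and 4192 because a coding gene start lay within 5 kb, which left 14007 members. A gene start (TSS) is the 5′ end of the gene as annotated, and the promoter window ran 1 kb to each side of it. A window was bound when the midpoint of at least 1 peak lay in it. The starts of 4936 members lay inside the body of a protein-coding gene, on either strand, and 9071 lay outside. Only 3880 members carry a name other than their Ensembl identifier.

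HEK293 is an established human embryonic kidney line. The series holds 10 samples, with 2 replicates for each of 4 ChIP targets (ZMYND8, FLAG-ZMYND8, H3K27ac, H3K14ac), 1 input library for the FLAG-ZMYND8 ChIP after doxycycline and 1 other input, all from Flp-In T-REx HEK293 cells, in which a transgene is placed at a preset genomic site and switched on by doxycycline. For the FLAG-ZMYND8 ChIP, the cells overproduced full-length 3xFLAG-ZMYND8 after 10 nM doxycycline and an anti-FLAG antibody was used, so its peaks describe an overexpressed, tagged protein. The ZMYND8 libraries came from an antibody that recognises the protein directly. The labels of those samples describe cells with 3xFLAG-ZMYND8 or its N228F mutant, do not say which, and name no doxycycline, so the antibody could also have bound tagged protein. The authors deposited 1 peak list per target, of 15086 and 63690 peaks, and these 2 lists are the data. The lists carry no read counts and no replicates, so the depth and the spread between replicates are unknown. Intervals (95%, Wilson for shares and Newcombe for differences) cover counting error only, and promoters are not replicates of a condition. A peak list holds no expression values, so the cell line could not be checked against marker genes, and which lncRNAs are transcribed in these cells is not known here.

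ZMYND8 is a chromatin reader. Its bromodomain and neighbouring PHD and PWWP domains bind modified histone tails, and it is known from both promoters and enhancers. Long noncoding RNAs are transcribed by RNA polymerase II without coding for a protein. Many start in CpG islands, stretches rich in CG dinucleotides where most promoters of widely expressed coding genes also lie, and many others start in CpG-poor DNA, often at enhancers or on the opposite strand of a coding gene.

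The DNA under 5 ZMYND8 peaks gives examples of bound lncRNA promoters, which do not represent the inside and outside classes. The central 300 bases are given for ENSG00000262172 and GRHL3-AS1, which start inside coding genes, and for DLEU2 and NORAD, which start outside them. The whole 272 bp peak is given for DANCR. ENSG00000262172 and DLEU2 carry the widest printable peaks of their class. GRHL3-AS1, NORAD and DANCR were added after their values were seen. All run 5′ to 3′ along the lncRNA strand on hg19, and capitals mark CG dinucleotides. The stretches of ENSG00000262172 and GRHL3-AS1 hold 4 CG each, whereas that of DLEU2 holds 30, that of DANCR 35 and that of NORAD 39. The stretch of GRHL3-AS1 describes the peak centre, since the 500 bp around the start of this gene were rich in CG, with a CpG ratio of 0.722.
ENSG00000262172 (chr17:77966662-77966961, minus strand): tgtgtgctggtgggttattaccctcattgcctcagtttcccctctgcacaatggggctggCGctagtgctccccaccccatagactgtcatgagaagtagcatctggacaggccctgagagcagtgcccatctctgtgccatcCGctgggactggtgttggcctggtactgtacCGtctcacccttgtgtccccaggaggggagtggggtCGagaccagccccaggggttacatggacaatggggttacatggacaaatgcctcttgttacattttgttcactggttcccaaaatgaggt
GRHL3-AS1 (chr1:24647885-24648184, minus strand): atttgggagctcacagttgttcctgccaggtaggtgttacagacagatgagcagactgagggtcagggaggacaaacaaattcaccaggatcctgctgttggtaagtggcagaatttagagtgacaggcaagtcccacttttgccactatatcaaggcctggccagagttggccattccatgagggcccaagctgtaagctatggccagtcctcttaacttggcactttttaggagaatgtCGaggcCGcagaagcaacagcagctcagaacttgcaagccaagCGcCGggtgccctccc
DLEU2 (chr13:50699067-50699366, minus strand): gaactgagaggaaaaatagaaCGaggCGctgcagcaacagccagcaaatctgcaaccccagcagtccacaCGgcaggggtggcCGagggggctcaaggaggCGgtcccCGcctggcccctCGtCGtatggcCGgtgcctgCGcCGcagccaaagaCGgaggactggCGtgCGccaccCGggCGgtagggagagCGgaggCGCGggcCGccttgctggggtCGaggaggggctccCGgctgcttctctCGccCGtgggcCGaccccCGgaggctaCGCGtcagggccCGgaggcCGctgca
NORAD (chr20:34638373-34638672, minus strand): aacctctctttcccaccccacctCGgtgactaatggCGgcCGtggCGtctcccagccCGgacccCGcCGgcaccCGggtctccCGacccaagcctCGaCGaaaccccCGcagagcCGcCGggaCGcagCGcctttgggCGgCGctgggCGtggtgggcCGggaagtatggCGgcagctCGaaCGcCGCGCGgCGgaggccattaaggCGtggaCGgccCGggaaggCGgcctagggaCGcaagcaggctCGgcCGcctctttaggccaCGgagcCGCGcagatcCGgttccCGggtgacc
DANCR (chr4:53578699-53578970, plus strand): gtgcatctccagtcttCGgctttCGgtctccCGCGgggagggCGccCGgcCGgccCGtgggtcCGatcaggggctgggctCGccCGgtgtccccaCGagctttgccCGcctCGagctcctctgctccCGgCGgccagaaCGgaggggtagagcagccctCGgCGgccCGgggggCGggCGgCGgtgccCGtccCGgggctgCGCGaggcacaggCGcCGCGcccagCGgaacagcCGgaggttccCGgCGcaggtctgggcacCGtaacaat

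The first comparison asked how often standalone lncRNA promoters were bound, and whether a position inside a coding gene mattered. ZMYND8 peaks lay in 702 of the 14007 windows, a share of 5.01% (4.66 to 5.39%). The share was 4.96% inside coding genes (245 of 4936) and 5.04% outside (457 of 9071), a difference of -0.0745 percentage points (-0.814 to 0.699), which did not pass the test (adjusted p = 0.871, two-sided Fisher's exact test with Benjamini-Hochberg adjustment over 8 tests). FLAG-ZMYND8 peaks lay in 1623 windows, 11.6% (11.1 to 12.1%). Here the share inside, 12.8% (631 windows), exceeded that outside, 10.9% (992 windows), by 1.85 points (0.730 to 2.99, adjusted p = 0.00195, Fisher's exact test). The excess was smaller and no longer passed in windows of 500 bp on each side (0.396 points, adjusted p = 0.545) or when only peaks wider than the minimum counted (0.673 points, adjusted p = 0.176), by the same exact test. Inside members also lay nearer to coding gene starts, at a median of 40.5 kb against 84.8 kb outside. At 5 to 10 kb the FLAG-ZMYND8 shares were 20.1% inside and 21.3% outside, and at 10 to 50 kb 15.4% and 16.1%. At 50 to 200 kb they were 9.73% and 11.0%, and beyond 200 kb 3.91% and 3.44%. The part of distance in the excess was not tested.

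Both shares were far below those of coding promoters and of lncRNA promoters near a coding start. Over all 61221 gene starts of the same chromosomes, 13.3% held a ZMYND8 midpoint and 24.8% a FLAG-ZMYND8 midpoint. This pool includes the members, the coding starts and the remaining gene classes, whose shares were not taken apart further. Of 19229 protein-coding starts, 29.2% held ZMYND8 and 50.5% FLAG-ZMYND8, which was 24.2 points (23.5 to 24.9) and 38.9 points (38.0 to 39.8) above the standalone lncRNA starts (Fisher's exact test, p too small for floating point). The 4192 lncRNA genes that start within 5 kb of a coding start held ZMYND8 at 30.4% and FLAG-ZMYND8 at 57.1%, and also exceeded the standalone class in tests added after the data were seen (p too small for floating point). The plot of shares by promoter class sets these values side by side.

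**Figure D1:**
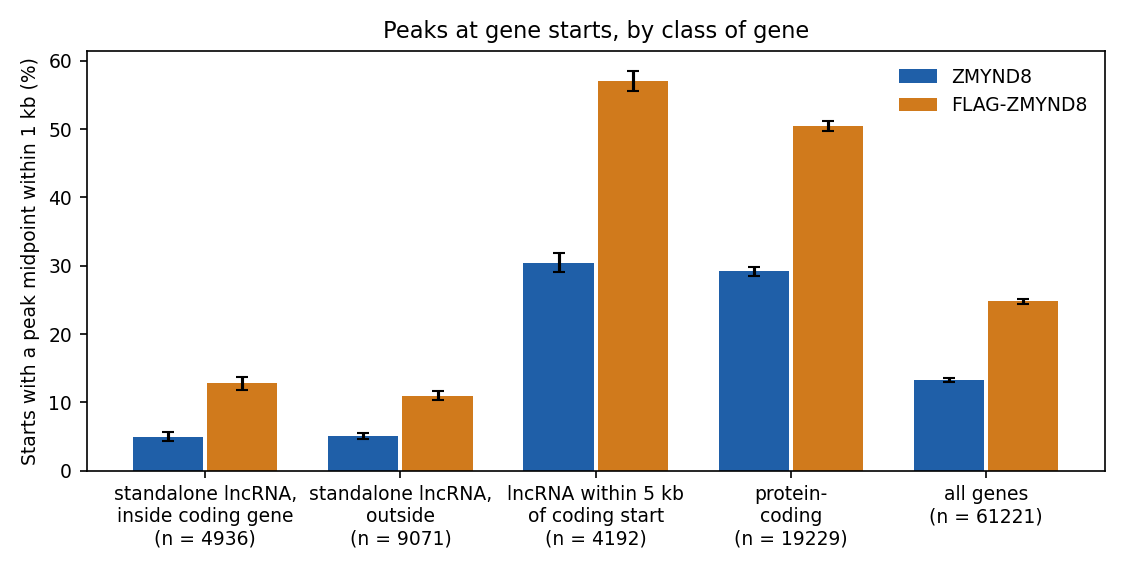
Share of windows (percent, vertical axis from 0) with a ZMYND8 or FLAG-ZMYND8 midpoint within 1 kb of the start, for each promoter class, with 95% Wilson intervals as error bars. Standalone lncRNA starts inside and outside coding genes sit at 4.96% and 5.04% for ZMYND8, far below coding starts at 29.2%.

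The body of a coding gene also holds the starts of other transcripts, which the choice of members by gene starts did not screen. A coding transcript here means any annotated transcript of a protein-coding gene, of the host or another, whether or not the transcript itself codes. Such a transcript start lay within 5 kb of 1896 of the 4936 inside members, and members with and without one were compared after the data were seen. ZMYND8 peaks lay at 9.70% of inside members with a coding transcript start nearby (184 windows) and at 2.01% of those without (61 of 3040), a difference of 7.70 points (6.33 to 9.18, adjusted p = 1.10e-32, Fisher's exact test, 8 added tests). For FLAG-ZMYND8 the shares were 21.8% and 7.14%, a difference of 14.7 points (12.7 to 16.8, adjusted p = 3.11e-49, Fisher's exact test). Members near a coding transcript start made up 75.1% of the ZMYND8-bound and 65.6% of the FLAG-ZMYND8-bound inside members. With all members near such a start left out, 12014 remained and inside members were bound less often than outside members, with an inside minus outside difference of -2.97 points for ZMYND8 (adjusted p = 1.30e-13, Fisher's exact test) and -3.65 points for FLAG-ZMYND8 (adjusted p = 4.05e-09). The FLAG-ZMYND8 difference thus changed its direction.

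The classes also differ in sequence along this split. A CpG-rich start was one whose surrounding 500 bp held at least 55% G and C and an observed-to-expected CpG ratio of at least 0.65. Of the inside members, 13.6% with a coding transcript start nearby were CpG-rich, against 2.37% of those without. Within CpG-rich starts, ZMYND8 lay at 44% of the 257 inside members near a coding transcript start, at 19.4% of the 72 inside members without, and at 30.4% of the 828 outside members without. The corresponding FLAG-ZMYND8 shares were 69.3%, 34.7% and 45.9%. Among the remaining starts ZMYND8 was at 4.33%, 1.58% and 2.39%, and FLAG-ZMYND8 at 14.4%, 6.47% and 7.22%. The 3 groups stood in the same order in each sequence class and list, though the intervals of the inside and outside members without a coding transcript start overlapped. The plot of coding transcript starts gives the split over both sequence classes together.

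**Figure D2:**
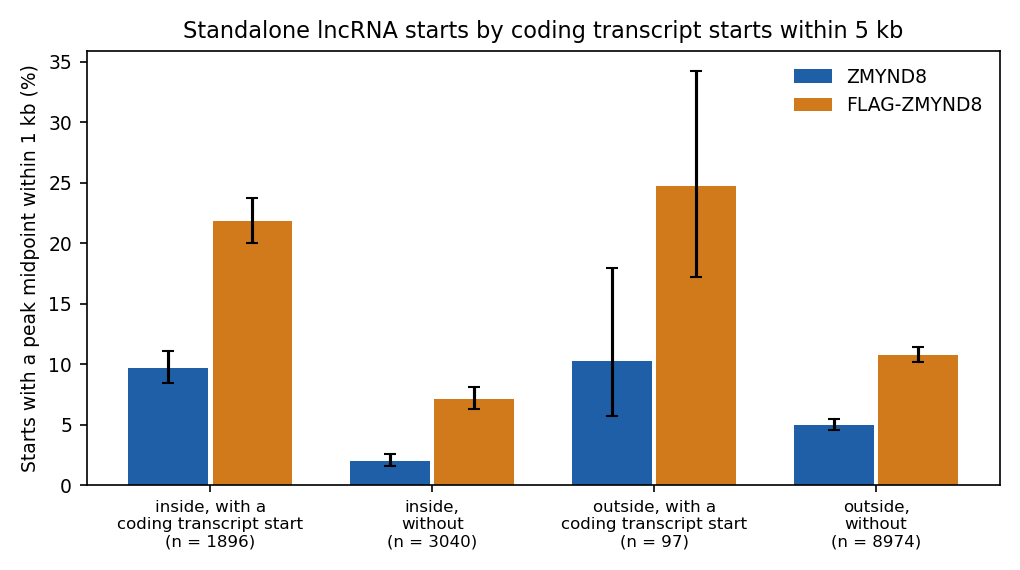
Share of standalone lncRNA windows (percent, vertical axis) with a midpoint of each list, split by position and by whether a coding transcript starts within 5 kb, with 95% Wilson intervals as error bars. A coding transcript is any annotated transcript of a protein-coding gene. Inside coding genes the ZMYND8 share falls from 9.70% near a coding transcript start to 2.01% away from one.

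Bound members were more often CpG-rich than unbound ones. CpG-rich starts made up 8.35% of the members (6.67% inside, 9.27% outside), but 53.5% of coding starts. ZMYND8 peaks lay at 32.6% of CpG-rich members and 2.5% of the others, and FLAG-ZMYND8 peaks at 50.3% and 8.05%. Over all gene starts the shares were 41.3% and 67.2% where CpG-rich and 4.38% and 11.4% elsewhere. Standalone lncRNA promoters thus lay below this pooled background in both sequence classes. The median GC content around the start was 61.4% for ZMYND8-bound and 46.0% for unbound members, with median CpG ratios of 0.710 and 0.238. GC content can also affect how well DNA is recovered and sequenced, and its part in these shares was not tested.

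Within a sequence class, coding starts remained more often bound than standalone lncRNA starts. In CpG-rich windows the gap was 11.5 points (8.60 to 14.3, adjusted p = 5.95e-14, Fisher's exact test over 8 tests within sequence classes) for ZMYND8 and 20.9 points (17.9 to 23.9, adjusted p = 2.88e-45) for FLAG-ZMYND8. In the other windows it was 9.60 points (8.88 to 10.3, adjusted p = 5.08e-177) and 18.5 points (17.5 to 19.5, adjusted p = 5.22e-295) by the same exact test. Among CpG-rich members alone, those inside coding genes were the more often bound, at 38.6% against 30.2% for ZMYND8 (adjusted p = 0.00774) and at 61.7% against 45.9% for FLAG-ZMYND8 (adjusted p = 2.22e-06) by the same exact test. In the other windows ZMYND8 lay at 2.56% inside and 2.47% outside (adjusted p = 0.768) and FLAG-ZMYND8 at 9.29% and 7.36% (adjusted p = 2.01e-04), by the same exact test. Of the CpG-rich inside members, 257 of 329 lay near a coding transcript start. The plot of shares by sequence shows the same ordering of coding and lncRNA starts in each panel.

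**Figure D3:**
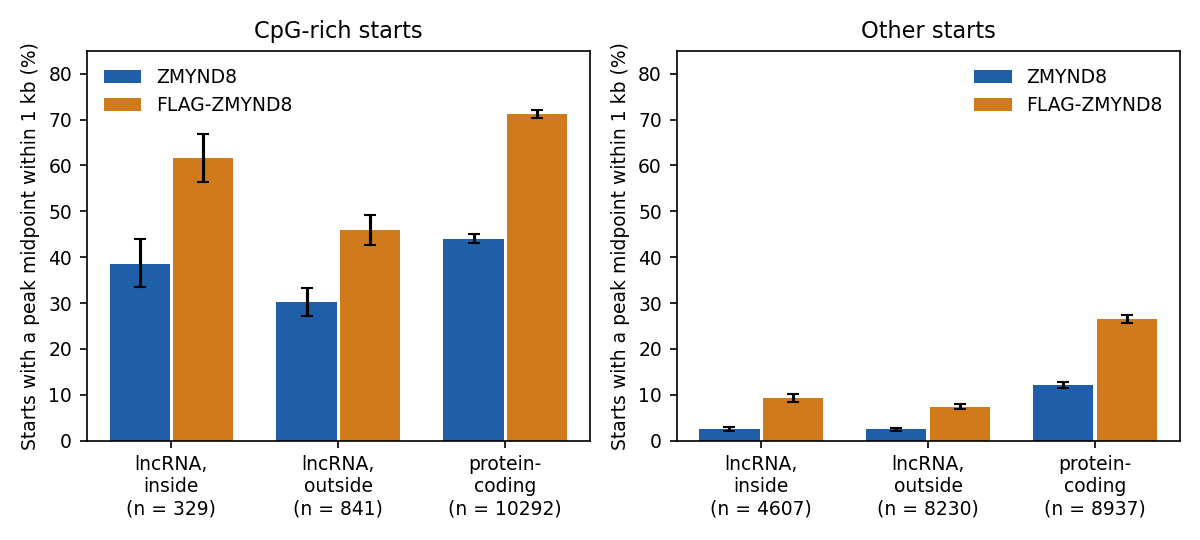
Share of windows (percent, vertical axis) with a midpoint of each list, for CpG-rich (left) and other starts (right) of standalone lncRNA genes inside and outside coding genes and of protein-coding genes, with 95% Wilson intervals as error bars. CpG-rich lncRNA starts lie at 38.6% inside and 30.2% outside for ZMYND8, below coding starts at 44.1%, and the other lncRNA starts at 2.56% and 2.47%.

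Midpoints were denser at the lncRNA starts than in the neighbouring DNA. Outside coding genes, ZMYND8 midpoints averaged 12.7 per 1000 starts and 500 bp within 1 kb of the start, 4.0 times the 3.17 found 5 to 10 kb away. Inside coding genes the density at the start was similar, 13.2, but the surroundings held 5.31, a ratio of 2.48. FLAG-ZMYND8 midpoints gave 35.6 against 13.7 outside (ratio 2.59) and 40.9 against 24.4 inside (ratio 1.68). The surroundings of inside members were thus denser in peaks of both lists. Around coding starts the ratios were 12.8 and 6.34. These ratios are descriptions without a test, and their members partly share peaks.

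**Figure D4:**
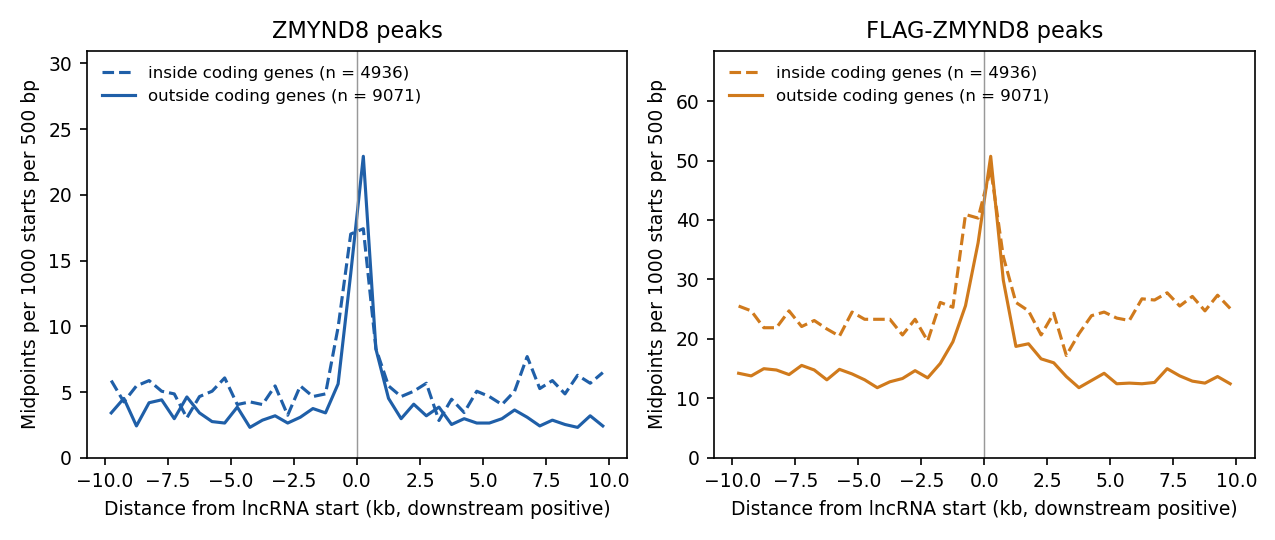
Midpoints per 1000 standalone lncRNA starts in 500 bp bins (vertical axis) against distance from the start in kb (horizontal axis, downstream positive), for starts inside (dashed) and outside (solid) coding genes. The 500 bp just downstream of the start held the most ZMYND8 midpoints outside coding genes, 22.9 per 1000 starts, against 17.4 inside.

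The side of the start on which midpoints fell differed between the classes. Each peak was counted once, at its nearest member, and downstream means in the direction of lncRNA transcription. Of 642 ZMYND8 midpoints, 378 lay downstream, 58.9% (55 to 62.6%, adjusted p = 2.08e-05, two-sided exact binomial test). Outside coding genes 64.8% lay downstream (252 of 389), whereas inside they were evenly divided at 49.8% (126 of 253). The difference of -15.0 points (-22.6 to -7.16) passed the added test (adjusted p = 2.46e-04, Fisher's exact test). Of 1924 FLAG-ZMYND8 midpoints, 54.7% lay downstream (52.5 to 56.9%, adjusted p = 7.28e-05, exact binomial test), with 57.3% outside and 51.0% inside (difference -6.39 points, -10.9 to -1.86, adjusted p = 0.00600, Fisher's exact test). At coding starts the downstream shares were higher than at standalone lncRNA starts, 69.5% (adjusted p = 1.63e-07) and 62.3% (adjusted p = 5.16e-10), by Fisher's exact test.

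These side differences rested in part on the settings. With members near a coding transcript start left out, the inside minus outside difference was -11.3 points for ZMYND8 (adjusted p = 0.109) and -5.71 points for FLAG-ZMYND8 (adjusted p = 0.116, Fisher's exact test), and neither passed. Neighbouring peaks are not independent, so the p-values describe the lists. The median ZMYND8 midpoint lay 127 bp downstream of outside starts and 3 bp upstream (-3) of inside starts. The peak itself covered the annotated start in 31.1% of ZMYND8-bound and 24.1% of FLAG-ZMYND8-bound windows.

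**Figure D5:**
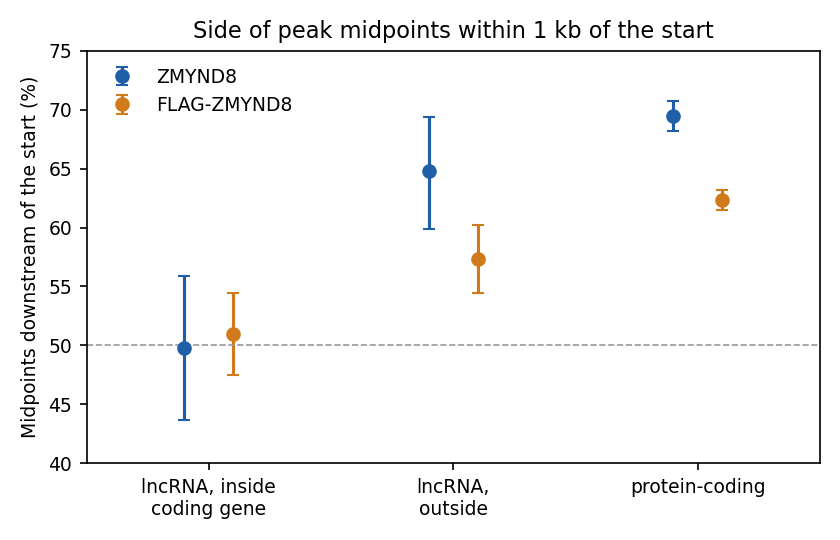
Share of midpoints downstream of the start (percent, vertical axis) for inside, outside and coding starts in each list, with 95% Wilson intervals as error bars and a line at 50%. Inside members lie at the line, 49.8% and 51.0%, and outside members above it, 64.8% and 57.3%.

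Peak width was the only measure of peak size, since the score column held 1 in each row of both lists. The narrowest ZMYND8 peaks were 151 bp and the narrowest FLAG-ZMYND8 peaks 167 bp, widths that 35.5% and 41.4% of the peaks at members had. The medians at members were 227.5 and 212 bp. The widest peak exceeded the minimum in 67.1% of ZMYND8-bound and 64.1% of FLAG-ZMYND8-bound members, against 68.9% and 76% of all bound gene starts and 69.4% and 79.7% of bound coding starts. Inside and outside members did not differ past the threshold, with 66.1% and 67.6% for ZMYND8 (difference -1.49 points, -8.89 to 5.67, adjusted p = 0.841) and 61.5% and 65.7% for FLAG-ZMYND8 (difference -4.24 points, -9.05 to 0.546, adjusted p = 0.119, Fisher's exact test). With members near a coding transcript start left out, the FLAG-ZMYND8 difference was -16.5 points (adjusted p = 1.14e-05, Fisher's exact test). Most ZMYND8-bound windows, 97.3%, held 1 peak, as did 74.8% of FLAG-ZMYND8-bound windows. The other windows held 2 ZMYND8 peaks, or up to 4 FLAG-ZMYND8 peaks.

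Peaks of both lists lay in 484 member windows, 3.46% of the members, against 10.3% of all gene starts. That was 68.9% of the ZMYND8-bound and 29.8% of the FLAG-ZMYND8-bound members. At coding starts the corresponding shares were 80.0% and 46.3%. In 379 of the 484 windows a peak of one list overlapped a peak of the other by at least 1 bp, and in 179 by at least 50% of each peak. ZMYND8 without FLAG-ZMYND8 was found at 218 members, FLAG-ZMYND8 without ZMYND8 at 1139, and neither at 12166. Members in both lists were the most CpG-rich, with 62.2% CpG-rich starts, against 54.3% of all ZMYND8-bound and 36.3% of all FLAG-ZMYND8-bound members.

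Where a member lay relative to its neighbours went with how often it was bound. At 5 to 10 kb from the nearest coding start, ZMYND8 was at 7.16% and FLAG-ZMYND8 at 20.7% of members. At 10 to 50 kb the shares were 7.03% and 15.8%, at 50 to 200 kb 4.82% and 10.6%, and beyond 200 kb 1.47% and 3.53%. The FLAG-ZMYND8 share was lower in each more distant bin, while the ZMYND8 intervals of the nearest bins overlapped. CpG-rich starts alone did not follow this order, with ZMYND8 at 27.6%, 35.2%, 35.8% and 18.7% and FLAG-ZMYND8 at 55.2%, 56.7%, 48.5% and 25.4% from the nearest bin to the most distant. Inside coding genes, members antisense to the host were bound at 5.75% and 14.4% (3686 members) and those on the same strand at 2.64% and 8.08% (1250 members), and 7.84% and 3.20% of them were CpG-rich. Antisense members without a coding transcript start within 5 kb were bound at 2.0% and 7.36%. These and the following shares are descriptions that were not tested.

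Members that start head to head with another lncRNA gene, on the opposite strand within 1 kb, were bound at 17.2% by ZMYND8 and 29.4% by FLAG-ZMYND8 (697 members), against 4.37% and 10.7% of the others. Such starts share DNA and often a peak. Where the start was CpG-rich, ZMYND8 was at 34.2% with and 32.2% without an opposite start, and FLAG-ZMYND8 at 55.4% and 49.1%. Where it was not, the shares were 8.80% and 2.26% for ZMYND8 and 16.5% and 7.74% for FLAG-ZMYND8. By name, the 10127 members with an Ensembl identifier only were bound at 4.19% and 10.1%, LINC genes at 4.76% and 11.0%, and genes named as antisense transcripts at 8.67% and 19.2%. Of the 29 genes named as divergent transcripts, 9 held ZMYND8 and 17 FLAG-ZMYND8, and of the 112 named as intronic transcripts 1 and 5 did. Between chromosomes, the share ran from 1.94% and 4.97% on chromosome 18 to 7.55% and 18.4% on chromosome 22.

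The widest ZMYND8 peak at any member, 4033 bp, lay at SPEN-AS1 (ENSG00000179743, chr1:16160969-16174642, minus strand), an antisense lncRNA that begins in an exon of SPEN, which encodes a transcriptional corepressor. Its midpoint lay 42 bp downstream of the SPEN-AS1 start, in an intron, and the peak covered the start. A coding transcript starts 296 bp away, so this peak can be assigned to either start. FLAG-ZMYND8 gave 2 peaks there of 315 and 344 bp. The window was CpG-rich, and the 300 bp at the peak centre held 44 CG dinucleotides.

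The second widest inside member, ENSG00000262172, began in an intron of TBC1D16, a Rab GTPase-activating protein gene, and was CpG-poor, with a CpG ratio of 0.270 around the start. It held the widest FLAG-ZMYND8 peak of all members as well, 3033 bp (chr17:77964895-77967927), beside a ZMYND8 peak of 2713 bp (chr17:77965455-77968167). Both peaks covered the start, and a coding transcript starts 793 bp away. GRHL3-AS1, in an intron of the epidermal transcription factor gene GRHL3, held peaks of 2490 and 1317 bp, with a coding transcript start at 1139 bp. ENSG00000235785, antisense in an intron of BCL11B, a transcription factor gene of T cells and neurons, held 2239 and 1276 bp, with the nearest coding transcript start at 8537 bp. ENSG00000258355, within CKAP4, held a 2258 bp ZMYND8 peak and 3 FLAG-ZMYND8 peaks of 273 to 580 bp, with a coding transcript start at 1064 bp. Of these 5 members, those in SPEN and GRHL3 had CpG-rich starts, although the centre of the GRHL3-AS1 peak printed above was poor in CG, and all 5 were in both lists. Of all ZMYND8-bound inside members, 51.8% were CpG-rich and 70.6% were in both lists.

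Outside coding genes, the widest ZMYND8 peak, 2409 bp (chr13:50698012-50700420), was shared by DLEU2, host of microRNAs of the miR-15 and miR-16 family, and ENSG00000274270, which start head to head. Its midpoint lay 640 bp downstream of the DLEU2 start, in an intron. No FLAG-ZMYND8 midpoint lay in the DLEU2 window, and ENSG00000274270 held 1 of 167 bp, the minimum width. The next widest were at ENSG00000291073 (2238 bp), ENSG00000271192 (2051 bp) and ENSG00000286728 (2048 bp), all CpG-rich and also in the FLAG-ZMYND8 list. Thus all 5 outside members with the widest ZMYND8 peaks were CpG-rich, against 55.6% of all ZMYND8-bound outside members. DLEU2 and ENSG00000274270 count there with the same peak.

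Of the 10 members with the widest FLAG-ZMYND8 peaks, 5 inside and 5 outside coding genes, 8 were not CpG-rich. Among all FLAG-ZMYND8-bound members, 36.3% were CpG-rich, so most were not. At UNC5B-AS1, in an intron of the netrin receptor gene UNC5B, the peak was 2500 bp wide without a ZMYND8 midpoint. ADAMTSL4-AS1 and ENSG00000289457 shared a peak of 2070 bp, again without ZMYND8, and ENSG00000272717 in SETD7, a lysine methyltransferase gene, held 2065 bp beside 1940 bp for ZMYND8. A coding transcript starts 30 bp from the start of ENSG00000272717, so its peaks can be assigned to either start. Outside coding genes the widest lay at ENSG00000260498 (2323 bp), ENSG00000253344 (2029 bp), ENSG00000227307 (2004 bp), ENSG00000289915 (1984 bp) and ENSG00000267737 (1931 bp), all with a ZMYND8 midpoint too. Of these outside members, only ENSG00000289915 was CpG-rich, against 38.9% of all FLAG-ZMYND8-bound outside members. The largest number of FLAG-ZMYND8 midpoints in a window, 4, was found at 6 members, of which ENSG00000254477, HIVEP2-DT, ENSG00000188365, ENSG00000241269 and ENSG00000269915 were named by the rule. The other, ENSG00000287742, started outside coding genes. Those 5 started inside a coding gene on its opposite strand and within 5 kb of a coding transcript start, and ENSG00000188365 and ENSG00000241269 in TNRC18 shared their 4 peaks.

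Well-known lncRNAs were read from lists chosen with earlier results of these data known. The background was 13.3% and 24.8% of all gene starts, and 5.01% and 11.6% of all members. Of 5 members on the list headed nuclear and architectural, 1 held ZMYND8 and 4 FLAG-ZMYND8. Where these RNAs lie in the cell was not examined. NORAD, which binds Pumilio proteins, held a ZMYND8 peak of 540 bp (chr20:34638253-34638792), centred 418 bp downstream of the start in its exon, and a FLAG-ZMYND8 peak of 167 bp. NEAT1, the scaffold of paraspeckles, held a FLAG-ZMYND8 peak of 1545 bp over its start (chr11:65189426-65190970), and MALAT1, a nuclear speckle RNA, held 2 of 167 and 211 bp to either side. KCNQ1OT1, the imprinted antisense RNA of KCNQ1, held 1 of 208 bp. No ZMYND8 midpoint lay at these 3, and MIAT had none of either list. Absence means below the authors' threshold at an unknown depth.

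Of 10 imprinted lncRNAs, 0 were in the ZMYND8 list and 1, KCNQ1OT1, in the FLAG-ZMYND8 list. H19, MEG3, MEG8, MEG9, AIRN, GNAS-AS1, HYMAI, PEG13 and PWRN1 had no midpoint. HYMAI, PEG13 and PWRN1 were CpG-rich all the same. The list headed p53 and stress had 4 members. DANCR, known for holding progenitor cells undifferentiated, held 272 bp for ZMYND8 and 2 FLAG-ZMYND8 peaks of 167 and 260 bp. NEAT1 was in the FLAG-ZMYND8 list, and EPB41L4A-AS1 and LINCMD1 were in neither peak list.

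Of 9 cancer linked members, PVT1, the neighbour of MYC, was in both lists, with a ZMYND8 peak of 449 bp over its start and 2 FLAG-ZMYND8 peaks of 167 bp. CASC15, CYTOR and SAMMSON held FLAG-ZMYND8 peaks of the minimum width, 167 bp, while UCA1, PCA3, BCAR4, LINC00511 and LINC-ROR had none of either list. The 3 members on the list headed pluripotency and neural, RMST, DLX6-AS1 and PAX8-AS1, had none. These lists hold few members, and none of their shares was tested against the background. Their headings are broad and do not describe each member.

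MicroRNA host genes, whose transcripts are cut to release microRNAs, formed the largest list. Of 67, ZMYND8 was at 9 and FLAG-ZMYND8 at 17, with 5 in both and 46 in neither. These shares, 13.4% and 25.4%, lay near the background of all gene starts, 13.3% and 24.8%. They were above the shares of all members, 5.01% and 11.6%. CpG-rich starts made up 20 of the 67 hosts, against 8.35% of all members. These differences were not tested. The 5 in both were MIR9-1HG, MIRLET7A1HG, MIR1915HG, MIR200CHG and MIRLET7IHG. The let-7 hosts MIRLET7A1HG and MIRLET7IHG held ZMYND8 peaks of 1416 and 1473 bp that covered the start, and FLAG-ZMYND8 peaks of 356 and 981 bp. MIR1915HG held 1569 and 1806 bp. DLEU2, MIR17HG, which yields the miR-17-92 cluster, MIR193BHG and MIR378D2HG were in the ZMYND8 list alone. A coding transcript starts 174 bp from the start of MIR378D2HG. MIR17HG held 648 bp centred 380 bp downstream of the start. Among hosts in the FLAG-ZMYND8 list alone, the widest peak, 1764 bp, lay at MIRLET7BHG, and MIR210HG, host of a hypoxia microRNA, held 2 of 167 and 404 bp. MIR34AHG, host of the p53 target miR-34a, was CpG-rich and had neither. Of the 9 ZMYND8-bound hosts, 7 were CpG-rich, against 20 of all 67, and 8 started outside coding genes, against 59 of all 67.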

How the data were processed

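Chromatin of crosslinked cells was digested with micrococcal nuclease and sonicated. Reads were aligned by the authors with BWA-MEM on hg19, and profiles were made with HOMER (the submitters' processing notes name BWA 0.7). Peak-calling settings, and how replicates were combined, are not given in the sources used here. The authors deposited each list as BED positions on hg19 with a score of 1 in every row, from which presence, width and midpoint were taken, and read depth cannot be derived from them. Input and acetylated histone libraries were not analysed here.

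Gene and transcript starts came from GENCODE release 44 and sequence from GRCh37, the build of hg19. Shares were compared with two-sided Fisher's exact tests and sides with exact binomial tests, with Benjamini-Hochberg adjustment over 8 planned tests and, separately, over 8 tests within sequence classes, 8 added after seeing the data, and a threshold of 0.05. A peak in the windows of several members counted in each of them for shares, and once, at the nearest start, for sides. Members, lists and tests were chosen with earlier results of these data known. Named genes were members of the lists described, the 5 with the widest peak of each list inside and outside coding genes, and 5 with the most FLAG-ZMYND8 midpoints. The sequence at the SPEN-AS1 peak is not printed, because it covers part of an exon of SPEN. Scripts were tested on simulated lists and used Python 3.11.15, numpy 2.4.6, pandas 2.3.3, scipy 1.17.1 and matplotlib 3.10.9.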

Additional observations from a re-analysis of the deposited data

How the results depend on the processing

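Of 156 recomputed tests, 138 gave the direction and the call as reported, 7 no longer passed, 4 newly passed and 7 reversed. Of 24 values without a test, 18 moved and 6 did not. Coding promoters stayed above standalone lncRNA promoters in both lists under each alternative run.

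The ZMYND8 share was 3.61% in windows of 500 bp on each side, 7.52% with 3 kb, 3.36% with peaks wider than the minimum, 4.23% without members near a coding transcript start, 4.56% with starts within 2 kb merged, 7.16% among genes with a name, 32.6% in CpG-rich and 2.5% in other windows. The FLAG-ZMYND8 share under the same alternatives was 7.99%, 18.6%, 7.42%, 9.86%, 11.0%, 15.4%, 50.3% and 8.05%, and 10.8% with no coding start within 10 kb. With a reciprocal overlap of 50%, 179 windows held both.

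The ZMYND8 inside minus outside difference, -0.0745 points, reversed to 0.706 points with 3 kb, 0.492 with merged starts, 1.94 among named genes (adjusted p = 0.0462, Fisher's exact test), 8.40 in CpG-rich and 0.0947 in other windows, and was -2.97 without members near a coding transcript start. That of FLAG-ZMYND8 reversed to -3.65 there, and was 0.396 with 500 bp and 0.673 with wider peaks. The share with wide peaks, inside minus outside, reversed to 0.449 points for ZMYND8 with merged starts. For FLAG-ZMYND8 it passed at -16.5 without members near a coding transcript start, -5.38 with peaks overlapping by at least 1 bp and -4.34 with 3 kb. The downstream difference no longer passed for ZMYND8 without members near a coding transcript start (-11.3), nor for FLAG-ZMYND8 there (-5.71), with 500 bp (-4.69) or among named genes (-5.99), and neither did that of coding minus lncRNA starts for ZMYND8 among named genes (5.79). The causes were not tested, and some alternatives keep fewer members (3880 named, 1170 CpG-rich).

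No paired analysis was possible because each target has 1 list that names no replicate, so leaving out a replicate was not possible either. An absent peak lies below the authors' threshold, at a depth that is unknown.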
